A study of Mus musculus with 7 samples.

Results

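The genes described here encode the receptors and ligands with which the retinal pigment epithelium (RPE) engulfs the tips that photoreceptors shed from their outer segments. The 10 genes were chosen by name from the 21861 rows of the count table, and each matched 1 row: the receptor kinases Mertk, Tyro3 and Axl, their ligands Gas6 and Pros1, the integrin subunits Itgav and Itgb5, the integrin ligand Mfge8, the scavenger receptor Cd36, and Ptk2, which encodes focal adhesion kinase. RNA was taken from the RPE of aged mice 12 weeks after they received an adeno-associated virus (AAV) carrying GFP (3 libraries, AAV-GFP) or GSTA4 (4 libraries, AAV-GSTA4), a glutathione transferase that conjugates aldehydes from lipid peroxidation. The labels call the mice old and give no age, strain, sex, vector promoter or number of animals behind a library, and all 7 libraries come from vector-treated mice. Where nothing says that libraries come from separate animals, p-values measure the spread between these libraries only.

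As background, MERTK, TYRO3 and AXL form the TAM family of receptor tyrosine kinases. GAS6 and protein S (Pros1) bridge them to phosphatidylserine exposed on the shed tips. The αvβ5 integrin (Itgav with Itgb5), engaged by MFG-E8, binds the tips and signals through focal adhesion kinase to MERTK, which drives ingestion. CD36 recognises oxidised phospholipids and takes part in uptake. Loss of MERTK in rodents leaves debris unengulfed and the photoreceptors degenerate, and in mice the level of TYRO3 modifies that outcome.

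The promoters of the 3 TAM receptor genes are shown because Mertk and Tyro3 had the highest fold changes of the 10 genes, whereas Axl had a fold change of the opposite sign. Sequences are from RefSeq (GRCm38.p6), from 250 bases before to 50 bases after the annotated start, written 5′ to 3′ in the direction of the gene. Capitals mark every match to the GC box GGGCGG or its reverse complement CCGCCC.

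Mertk promoter, chr2:128698665-128698964, plus strand: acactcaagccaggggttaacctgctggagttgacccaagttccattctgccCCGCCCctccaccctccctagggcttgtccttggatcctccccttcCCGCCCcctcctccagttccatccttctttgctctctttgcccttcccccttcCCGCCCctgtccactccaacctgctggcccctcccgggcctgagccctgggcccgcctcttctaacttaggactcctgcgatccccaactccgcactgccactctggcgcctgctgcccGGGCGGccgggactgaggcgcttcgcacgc
Tyro3 promoter, chr2:119799264-119799563, plus strand: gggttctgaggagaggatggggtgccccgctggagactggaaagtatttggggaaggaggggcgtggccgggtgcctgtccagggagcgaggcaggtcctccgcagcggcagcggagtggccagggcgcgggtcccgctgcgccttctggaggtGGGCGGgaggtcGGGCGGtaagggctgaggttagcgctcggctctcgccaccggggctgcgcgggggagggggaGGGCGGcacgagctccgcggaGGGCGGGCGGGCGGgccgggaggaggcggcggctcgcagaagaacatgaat
Axl promoter, chr7:25788684-25788983, minus strand: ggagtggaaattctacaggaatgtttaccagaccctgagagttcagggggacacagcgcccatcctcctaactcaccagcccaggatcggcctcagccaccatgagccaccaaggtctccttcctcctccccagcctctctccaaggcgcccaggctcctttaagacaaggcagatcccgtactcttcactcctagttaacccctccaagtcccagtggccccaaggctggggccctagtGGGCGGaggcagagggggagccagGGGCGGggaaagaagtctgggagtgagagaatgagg

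Among the 10 genes, 9 had a promoter in that table. The Mertk window held 4 matches to the GC box, Tyro3 6 (some overlapping each other) and Axl 2, and 35.7% of the 32851 promoters held at least 1. The E-boxes CACGTG and CATGTG, the OTX core TAATCC and the TATA box TATAAA were searched on both strands and had no match in any of the 9 windows. They occurred in 7.15%, 14.2%, 7.06% and 13.6% of all promoters. Mertk had 14 CpG dinucleotides, Tyro3 31 and Axl 6, against a median of 7. None of these counts separated Mertk and Tyro3 from the other genes as a group: Pros1 had 5 GC boxes and 21 CpG.

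Library totals were 15329181 to 28998964 counts. Levels are in CPM, read counts scaled to a common library size, after trimmed-mean (TMM) scaling, and 3 counts, the smallest level read as detected, equalled 0.111 to 0.176 CPM. Polyadenylated RNA was amplified without stated molecular identifiers, so counting precision refers to reads. The human GSTA4 transgene row had 1 to 3 counts in AAV-GFP and 4209, 5239, 45 and 1184 counts in AAV-GSTA4 replicates 1 to 4, so every AAV-GSTA4 library lay above every AAV-GFP library while the transgene level varied widely. The d2EGFP row did not separate the groups: AAV-GFP replicate 1 was at 4.61 CPM and AAV-GSTA4 replicate 1 at 8.57 CPM. AAV-GFP replicate 3 stood apart, with a mean correlation to the other libraries of 0.838 against 0.910 to 0.926. It also had the lowest sum over 19 RPE identity genes, at 25424 CPM against 61026 to 118396 CPM, and the highest over 19 rod genes, at 45676 CPM against 8573 to 28633 CPM. Rpe65, the visual cycle isomerase that defines the RPE, was at 1765 to 9201 CPM in AAV-GFP and 5977 to 11820 CPM in AAV-GSTA4.

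All 10 genes passed the expression filter. The comparison asks whether the receptors and ligands differed between aged RPE that received GSTA4 and aged RPE that received GFP. None of the 10 passed the adjusted threshold of 0.05 in edgeR's quasi-likelihood test, where 0% of the 15075 genes tested passed. At an unadjusted p under 0.05 there were 1794 genes in all, and with other tools 202 (DESeq2) and 146 (limma-voom) passed after adjustment. Higher in AAV-GSTA4 at an unadjusted p under 0.05 were 2 of the 10, Mertk and Tyro3, where 5.27% of all genes were. Lower were 0 of the 10, where 6.63% of all genes were. Groups did not overlap for 3 of the 10, Mertk, Tyro3 and Ptk2, all with AAV-GSTA4 above, where 6.44% of all genes showed that order. In the other direction the count was 0, against 5.61%. When counts were scaled to library totals instead, groups did not overlap for 2 genes with AAV-GSTA4 above, Mertk and Tyro3, against 2.02% of all genes. With those totals they also did not overlap for 2 genes with AAV-GSTA4 below, Pros1 (log2 fold change -0.76) and Mfge8 (-0.77), against 12% of all genes. The median log2 fold change of the 10 was -0.0045, with 5 above and 5 below 0, and that of all genes was -0.07, with 44.6% above 0.

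**Figure D1:**
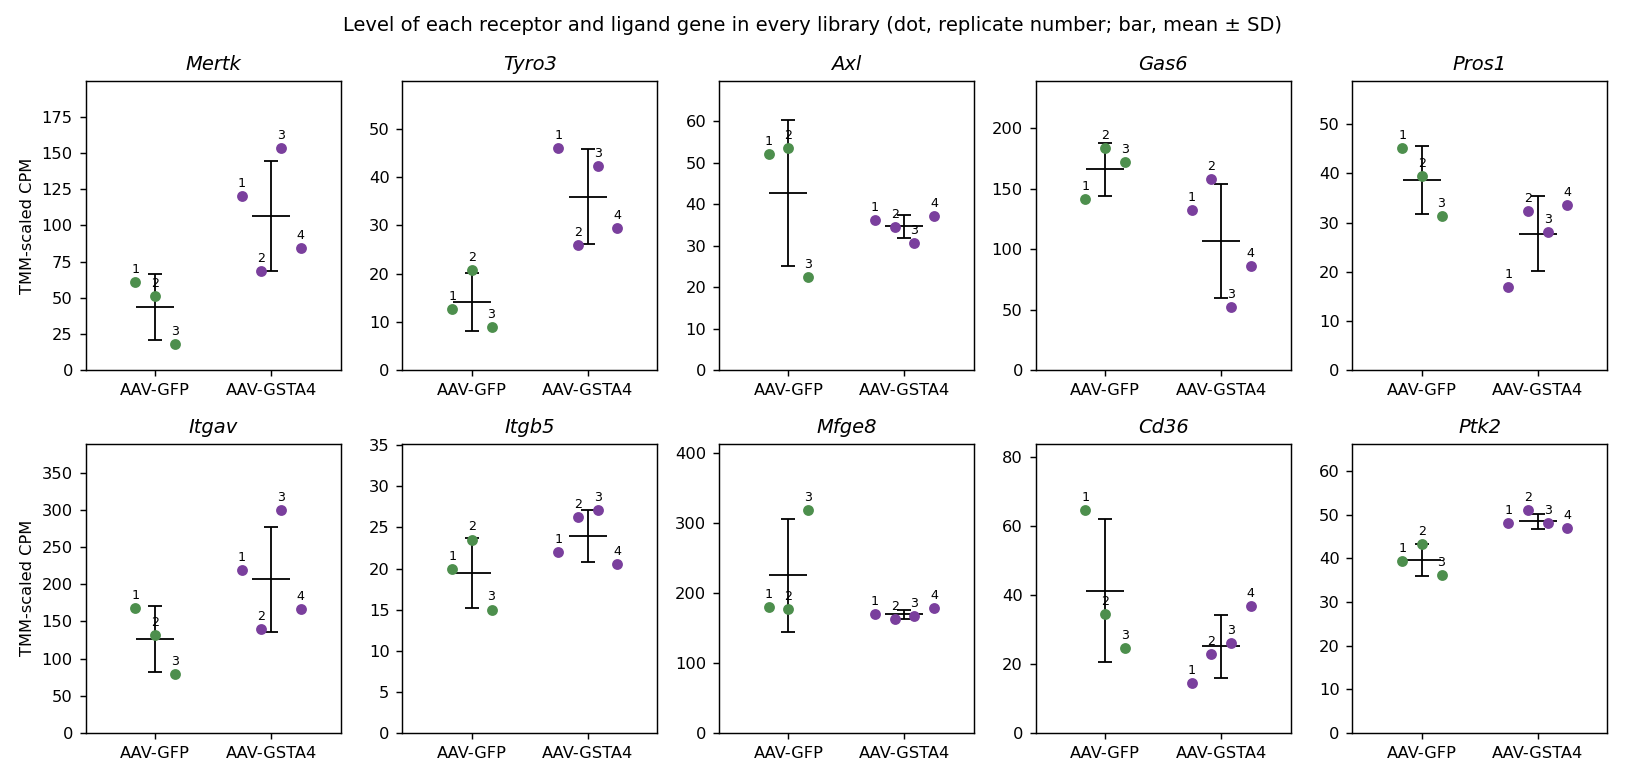
TMM-scaled CPM (vertical axis) of each of the 10 genes in the 3 AAV-GFP and 4 AAV-GSTA4 libraries; dots are libraries with their replicate number, and bars are mean ± SD. For Mertk, Tyro3 and Ptk2 every AAV-GSTA4 dot lies above every AAV-GFP dot, and AAV-GFP replicate 3 is the lowest dot for Mertk, Tyro3, Axl, Itgav, Itgb5 and Ptk2 and the highest for Mfge8.

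Mertk, the receptor that triggers ingestion (chromosome 2, 128698956 to 128802894, plus strand, GRCm38), was at 61.2, 51.4 and 18.2 CPM in AAV-GFP replicates 1 to 3. In AAV-GSTA4 replicates 1 to 4 it was at 120, 68.4, 154 and 84.3 CPM. The groups did not overlap, although AAV-GSTA4 replicate 2 was only slightly above AAV-GFP replicate 1. The means were 43.6 CPM ± 22.5 (SD, n = 3) and 107 CPM ± 38.1 (SD, n = 4). This 2.44-fold difference was 1.29 ± 0.43 on the log2 scale (SE; 95% interval 0.33 to 2.25), with an adjusted p of 0.363 in edgeR's quasi-likelihood test. Without AAV-GFP replicate 3 it was 0.92 (adjusted p = 0.335, edgeR).

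Tyro3, the TAM receptor whose level modifies the effect of Mertk loss (chromosome 2, 119797733 to 119818104, plus strand), was at 12.6, 20.8 and 8.92 CPM in AAV-GFP replicates 1 to 3. Its levels were 46.1, 25.9, 42.4 and 29.6 CPM in replicates 1 to 4 of AAV-GSTA4. Again no libraries overlapped, and AAV-GSTA4 replicates 1 and 3 were the highest, as for Mertk. The means were 14.1 CPM ± 6.10 (SD, n = 3) and 36.0 CPM ± 9.76 (SD, n = 4). The log2 fold change of 1.35 ± 0.35 (SE; 95% interval 0.57 to 2.12), or 2.55-fold, was the highest of the 10 genes. Its adjusted p was 0.363 in edgeR's test. DESeq2 alone called it, with an adjusted p of 0.0297, where DESeq2 called 2.14% of the genes it adjusted. In limma-voom, which called 0.968% of all genes, 0 of the 10 passed. Over all alternatives its adjusted p ranged from 0.0297 to 0.865.

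Axl, the TAM receptor best known from immune and vascular cells (chromosome 7, 25757273 to 25788705, minus strand), was at 52.1, 53.6 and 22.4 CPM in AAV-GFP replicates 1 to 3. In AAV-GSTA4 it lay between 30.7 and 37.1 CPM in all 4 libraries. AAV-GFP replicates 1 and 2 were above every AAV-GSTA4 library and replicate 3 was below them, so the groups overlapped. Its log2 fold change of -0.30 ± 0.30 (SE; 95% interval -0.97 to 0.37) came with an adjusted p of 0.710 in edgeR's test. It was -0.61 without AAV-GFP replicate 3 (adjusted p = 0.320, edgeR), and -0.13 and -0.10 without replicates 1 and 2.

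Y-linked transcripts split the libraries independently of the groups: Ddx3y, Uty, Kdm5d and Eif2s3y summed to 306 to 464 CPM in AAV-GFP replicate 1 and AAV-GSTA4 replicates 3 and 4, and to 2.83 CPM or less in the other 4 libraries. Among the libraries with these transcripts Mertk was at 61.2 CPM in AAV-GFP and at 154 and 84.3 CPM in AAV-GSTA4, and Tyro3 at 12.6 CPM and at 42.4 and 29.6 CPM. Among the others Mertk was at 51.4 and 18.2 CPM in AAV-GFP and at 120 and 68.4 CPM in AAV-GSTA4, and Tyro3 at 20.8 and 8.92 CPM and at 46.1 and 25.9 CPM. Both genes were higher in AAV-GSTA4 within each class. Any split of these libraries would give that order, because the groups did not overlap for either gene. No test was run within a class. With the mean level of these transcripts as a covariate in edgeR, the log2 fold change was 1.23 for Mertk (adjusted p = 0.484) and 1.39 for Tyro3 (adjusted p = 0.479).

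The balance among the TAM receptors was read from ratios of counts within a library, which scaling does not touch. Mertk had 1.18, 0.959 and 0.814 counts per Axl count in AAV-GFP replicates 1 to 3. It had 3.33, 1.98, 5.0 and 2.27 in AAV-GSTA4 replicates 1 to 4. These ratios did not overlap, with means of 0.983 ± 0.182 (SD, n = 3) and 3.14 ± 1.37 (SD, n = 4). The same order, with AAV-GSTA4 above, held against Axl for 8.35% of the other 15074 genes tested. Tyro3 counts per Axl count did not overlap either, at 0.242 to 0.398 in AAV-GFP and 0.750 to 1.38 in AAV-GSTA4. Mertk counts per Tyro3 count overlapped, at 2.04 to 4.85 and 2.61 to 3.62. The ratio pairs were chosen with the fold changes known and were not tested.

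**Figure D2:**
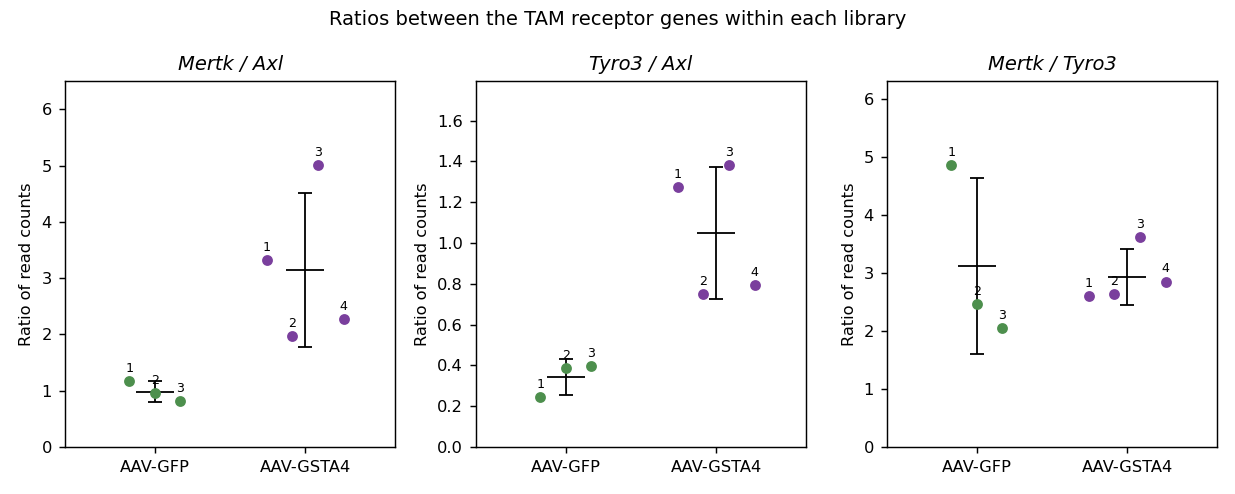
Ratio of raw read counts (vertical axis) of Mertk to Axl, Tyro3 to Axl and Mertk to Tyro3 in each library; dots are libraries with their replicate number, and bars are mean ± SD. Both ratios to Axl lie higher in all 4 AAV-GSTA4 libraries than in all 3 AAV-GFP libraries, and the Mertk to Tyro3 ratio overlaps.

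The ligands of the TAM receptors gave no such separation. Gas6 (chromosome 8, 13465374 to 13494490, minus strand) was at 142, 184 and 172 CPM in AAV-GFP replicates 1 to 3 and at 133, 158, 52.5 and 85.8 CPM in replicates 1 to 4 of AAV-GSTA4. AAV-GSTA4 replicates 3 and 4 were well below the rest, and replicate 2 lay within the AAV-GFP range. Gas6 had a log2 fold change of -0.63 ± 0.35 (SE; 95% interval -1.41 to 0.15; adjusted p = 0.490, edgeR), which was -0.39 without AAV-GSTA4 replicate 3. In the GENCODE M21 annotation 1.33% of the Gas6 exon bases overlap Tmem255b on the other strand, and the strand setting of the counting is not given in the sources used here.

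Pros1, the gene of protein S (chromosome 16, 62854307 to 62929346, plus strand), was at 45.2, 39.5 and 31.4 CPM in AAV-GFP replicates 1 to 3 and at 16.8, 32.3, 28.1 and 33.7 CPM in replicates 1 to 4 of AAV-GSTA4. Of the AAV-GSTA4 libraries, 2 were below every AAV-GFP library. Pros1 had a log2 fold change of -0.48 ± 0.28 (SE; 95% interval -1.10 to 0.14; adjusted p = 0.502, edgeR), which was -0.28 without AAV-GSTA4 replicate 1. Gas6 had 3.13 to 5.49 counts per Pros1 count in AAV-GFP and 1.87 to 7.89 in AAV-GSTA4, so the mix of the ligands varied most within AAV-GSTA4.

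The binding integrin was represented by its subunits. Itgav, the αv chain shared by several integrins (chromosome 2, 83724397 to 83806916, plus strand), was at 168, 132 and 78.9 CPM in AAV-GFP replicates 1 to 3 and at 220, 140, 299 and 167 CPM in replicates 1 to 4 of AAV-GSTA4. AAV-GSTA4 replicates 1 and 3 were above every AAV-GFP library and the other libraries overlapped. The log2 fold change was 0.71 ± 0.34 (SE; 95% interval -0.05 to 1.48), with an adjusted p of 0.443 in edgeR's test, and it was 0.47 without AAV-GFP replicate 3. In the annotation 5.90% of its exon bases overlap Gm13684 on the other strand.

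Itgb5, the β5 chain that sets the specificity of the receptor (chromosome 16, 33829665 to 33949338, plus strand), was at 19.9, 23.5 and 15.0 CPM in AAV-GFP and at 22.0, 26.2, 27.1 and 20.5 CPM in AAV-GSTA4. The groups overlapped, with AAV-GSTA4 replicates 1 and 4 within the AAV-GFP range. The log2 fold change was 0.30 ± 0.25 (SE), and the 95% interval of -0.26 to 0.85 leaves room for either sign (adjusted p = 0.649, edgeR). It was 0.14 without AAV-GFP replicate 3, 0.46 without AAV-GFP replicate 2 and 0.020 with library totals. Itgav had 5.26 to 8.43 counts per Itgb5 count in AAV-GFP and 5.33 to 11.1 in AAV-GSTA4.

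Mfge8, the soluble integrin ligand (chromosome 7, 79133768 to 79149060, minus strand), was at 179, 177 and 317 CPM in AAV-GFP replicates 1 to 3 and at 169, 163, 167 and 178 CPM in replicates 1 to 4 of AAV-GSTA4. Apart from AAV-GFP replicate 3 the 6 libraries were nearly equal. Its log2 fold change was -0.41 ± 0.26 (SE; 95% interval -0.98 to 0.16; adjusted p = 0.535, edgeR). Without that library it was -0.07 (adjusted p = 0.880, edgeR), and with the mean level of the rod genes as a covariate its sign turned, to 0.037.

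Ptk2, which relays the integrin signal (chromosome 15, 73205102 to 73423280, minus strand), was at 39.4, 43.3 and 36.1 CPM in AAV-GFP and at 48.2, 51.0, 48.1 and 47.0 CPM in AAV-GSTA4. It was the most even of the 10 genes: its standard deviation of log2 CPM over the 7 libraries was 0.18, at percentile 3.00 of all genes tested. The groups did not overlap, but the log2 fold change was only 0.29 ± 0.18 (SE; 95% interval -0.12 to 0.70), with an adjusted p of 0.535 in edgeR's test. With library totals in place of TMM it was 0.0022 and the groups overlapped.

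Cd36, the scavenger receptor (chromosome 5, 17781690 to 17888801, minus strand), was at 64.5, 34.6 and 24.6 CPM in AAV-GFP replicates 1 to 3 and at 14.5, 23.0, 26.0 and 36.8 CPM in replicates 1 to 4 of AAV-GSTA4. Replicate 1 of AAV-GFP was the highest library and replicate 1 of AAV-GSTA4 the lowest, and the others mixed. The log2 fold change was -0.72 ± 0.38 (SE; 95% interval -1.58 to 0.15), with an adjusted p of 0.481 in edgeR's test, and it was -0.24 without AAV-GFP replicate 1.

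**Figure D3:**
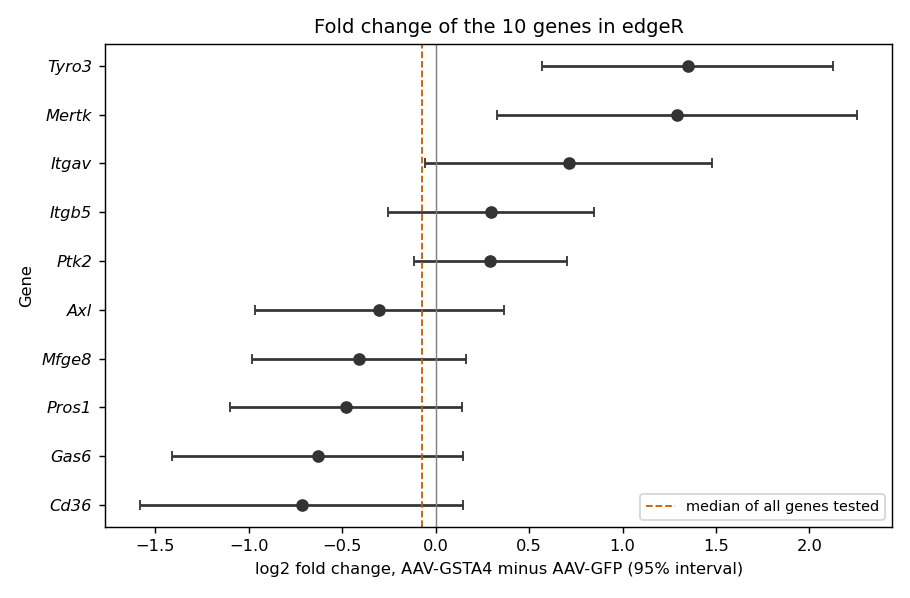
Log2 fold change in edgeR, AAV-GSTA4 relative to AAV-GFP (horizontal axis) for the 10 genes in order; dots are estimates, bars are 95% intervals that are not adjusted for the number of genes, and the dashed line is the median of all genes tested. The intervals of Tyro3 and Mertk lie above 0 and the other 8 cross it.

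Levels were compared between genes only per kilobase of merged exons (GENCODE M21, GRCm38). In AAV-GFP the order was Gas6 at 65.1 CPM per kb ± 8.57 (SD, n = 3), Mfge8 at 47.9 ± 17.1, Itgav at 11.7 ± 4.17, Cd36 at 11.5 ± 5.78, Mertk at 10.1 ± 5.20, Pros1 at 9.47 ± 1.70, Axl at 8.48 ± 3.49, Itgb5 at 5.49 ± 1.20, Ptk2 at 3.36 ± 0.305 and Tyro3 at 2.28 ± 0.984. The secreted ligands Gas6 and Mfge8 had the highest levels. Of neighbours in this order, only Mfge8 and Itgav, and Itgb5 and Ptk2, had ranges of mean ± SD that did not overlap. In AAV-GSTA4 Mertk followed Gas6 and Mfge8 at 24.6 CPM per kb ± 8.79 (SD, n = 4), above Itgav at 19.2 ± 6.53, and these overlapped in their spread. Gas6 was at 42.1 ± 18.5 and Mfge8 at 36.0 ± 1.36. Tyro3 was at 5.81 ± 1.57, close to Itgb5 at 6.74 ± 0.897, Pros1 at 6.78 ± 1.87, Axl at 6.88 ± 0.559 and Cd36 at 6.98 ± 2.57, and Ptk2 was last at 4.11 ± 0.146. Here the ranges of mean ± SD did not overlap between Mfge8 and Mertk or between Itgav and Cd36, and did between all other neighbours. Merged exon length depends on the annotation release, which the sources used here do not give for the counts.

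In bulk tissue, fewer cells of a type and less RNA per cell cannot be told apart, so each gene was also set against 19 RPE identity genes in the same library. Of those genes, 15 had a fold change above 0, with a median log2 fold change of 0.59, and 0 passed after adjustment (edgeR). The 4 below 0 were Tyrp1, Dct, Pmel and Mlana. At an unadjusted p under 0.05, 5 of the 19 were higher and 0 lower, against 5.27% and 6.63% of all genes. Groups did not overlap, with AAV-GSTA4 above, for 4 of the 19, against 6.44% of all genes. These were Stra6 (log2 fold change 1.25), Lrat (1.15), Rdh5 (0.91) and Otx2 (0.68), where Mertk had 1.29. The summed level of the 19 genes was 25424 to 76818 CPM in AAV-GFP and 66620 to 118396 CPM in AAV-GSTA4, which overlapped. Relative to the mean log2 CPM of those genes, Mertk was at -4.00, -4.09 and -4.32 in AAV-GFP replicates 1 to 3 and at -2.84, -3.64, -2.89 and -3.75 in AAV-GSTA4 replicates 1 to 4. On this scale Mertk was higher in AAV-GSTA4 by 0.85. Against Rpe65 alone the groups overlapped, at 0.00665 to 0.0107 Mertk counts per Rpe65 count in AAV-GFP and 0.00848 to 0.0183 in AAV-GSTA4. Relative to the mean of the 19 genes Tyro3 was also higher by 0.85, but only narrowly separated. AAV-GFP replicate 3 was at -5.34 and AAV-GSTA4 replicate 4 at -5.25.

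On this relative scale the groups did not overlap, with AAV-GSTA4 above, for 2 of the 10 genes, against 0.915% of all genes. They did not overlap with AAV-GSTA4 below for 3 of the 10, Axl, Pros1 and Cd36, against 12.3% of all genes. Axl was at -4.23 to -4.02 in AAV-GFP and at -5.21 to -4.57 in AAV-GSTA4. Cd36 was at -4.66 to -3.89 in AAV-GFP and at -5.89 to -4.94 in AAV-GSTA4. Pros1 was at -4.47 to -3.54 in AAV-GFP and at -5.67 to -4.72 in AAV-GSTA4. Itgav, Itgb5, Mfge8, Gas6 and Ptk2 overlapped. This scale subtracts a reference whose own median log2 fold change was 0.59.

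**Figure D4:**
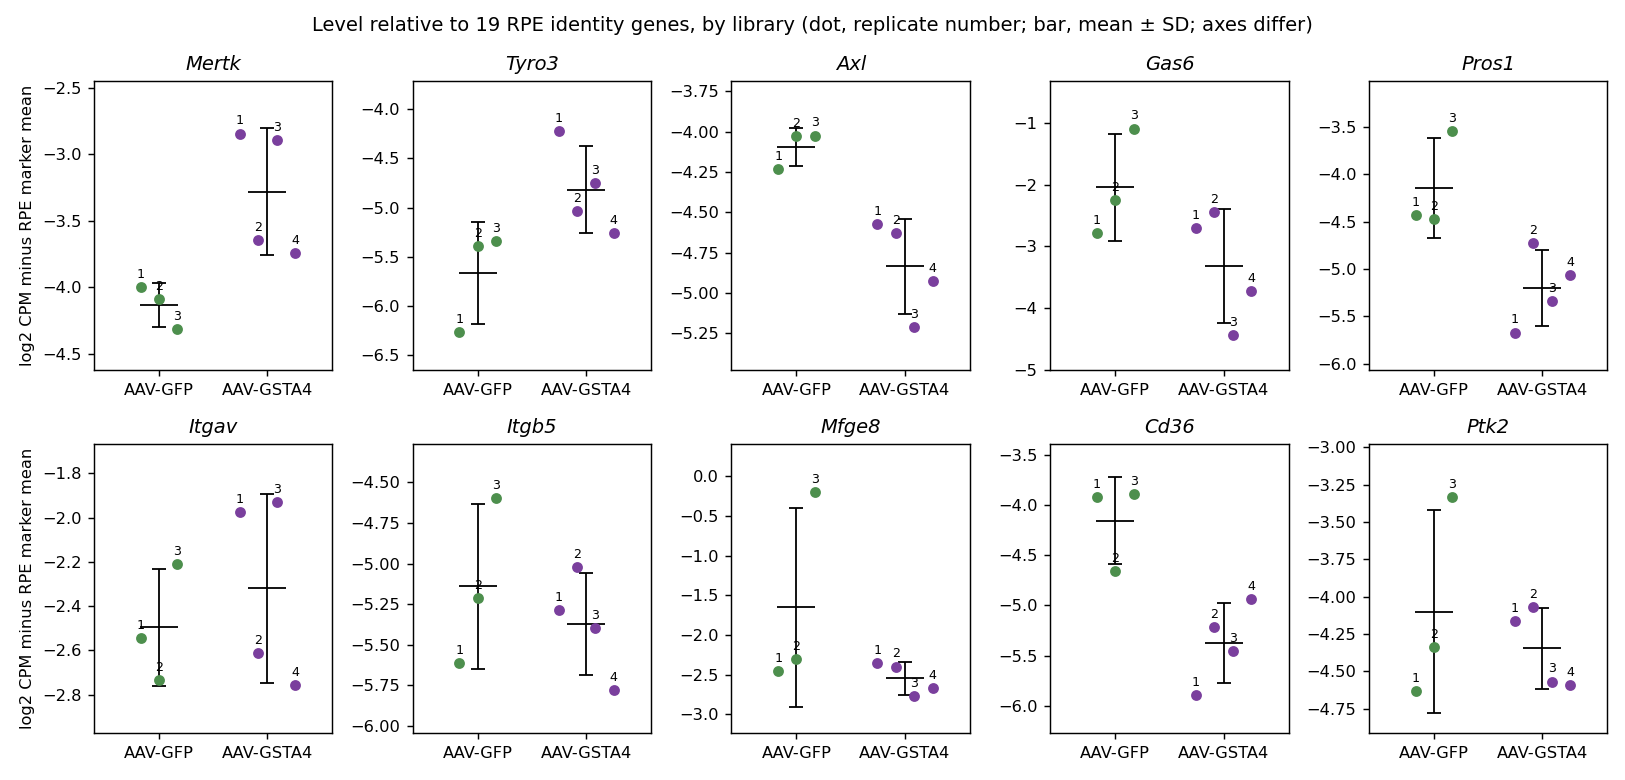
Log2 CPM of each gene minus the mean log2 CPM of 19 RPE identity genes (vertical axis, own range in each panel) in every library; dots are libraries with their replicate number, and bars are mean ± SD. Mertk and Tyro3 lie higher in all AAV-GSTA4 libraries, Axl, Pros1 and Cd36 lie lower, and the other 5 genes overlap.

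With the mean level of the RPE genes as a covariate in edgeR, Mertk had a log2 fold change of 0.82, Tyro3 1.10, Axl -0.61, Pros1 -0.68 and Cd36 -1.16, with adjusted p-values from 0.292 (Cd36) to 0.373 (Pros1). These 5 of the 10 were under an unadjusted 0.05, where 12.6% of all genes were, and none passed after adjustment. All 19 rod genes had a fold change below 0. Groups did not overlap, with AAV-GSTA4 below, for 9 of the 19, against 5.61% of all genes. The sum over the rod genes was 17404 to 45676 CPM in AAV-GFP and 8573 to 15799 CPM in AAV-GSTA4, without overlap. With their mean level as the covariate, the log2 fold change of Mertk was 0.87 (adjusted p = 0.678, edgeR), that of Tyro3 1.44 (adjusted p = 0.549, edgeR) and that of Cd36 -1.77 (adjusted p = 0.355, edgeR). Under an unadjusted 0.05 were then 4 of the 10 genes, Tyro3, Axl, Pros1 and Cd36, against 8.94% of all genes, and Mertk was not among them.

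Most markers of macrophages and endothelium, cells that can also express some of the 10 phagocytosis genes, had fold changes below 0. Of 17 macrophage and microglia genes 16 had a fold change below 0, and their sum was 1209 to 3714 CPM in AAV-GFP and 1580 to 3549 CPM in AAV-GSTA4. Lyz2 alone was at 663 to 2857 CPM in AAV-GFP and 715 to 2689 CPM in AAV-GSTA4. Cd68, a lysosomal marker of macrophages, was at 49.4 to 88.5 CPM and 48.1 to 83.2 CPM. Adgre1, which encodes F4/80, was at 20.7 to 32.8 CPM and 13.7 to 19.3 CPM. Csf1r, the only gene of this list above 0, was at 127 to 258 CPM in AAV-GFP and 290 to 567 CPM in AAV-GSTA4, without overlap. It was the only 1 of the 17 not to overlap with AAV-GSTA4 above, against 6.44% of all genes. With AAV-GSTA4 below, 3 of the 17 did not overlap, Adgre1, Aif1 and C1qc, against 5.61% of all genes. Of 12 endothelial genes 11 were below 0. The sum over the 12 was 46.7, 66.2 and 206 CPM in AAV-GFP replicates 1 to 3 and 52.1 to 70.2 CPM in AAV-GSTA4. Only AAV-GFP replicate 3 lay above the AAV-GSTA4 range. Tek, the only endothelial gene above 0, was at 1.20 to 2.55 CPM in AAV-GFP and 3.21 to 8.46 CPM in AAV-GSTA4, without overlap. Of 11 stromal genes 6 were below 0, with sums of 314 to 1311 CPM and 609 to 952 CPM. No gene of these 3 lists, or of the RPE and rod lists, was without counts. The part of macrophages, endothelium and stroma in the values of any of the 10 phagocytosis genes was not tested. Of 10 lens fibre genes 9 were tested and all 9 had a fold change above 0, with a median log2 fold change of 2.49. None passed after adjustment in edgeR. At an unadjusted p under 0.05, 8 were higher in AAV-GSTA4, against 5.27% of all genes. The sum over the 10 lens genes was 2821 to 11646 CPM in AAV-GFP and 4263 to 106172 CPM in AAV-GSTA4. These sums overlapped, and AAV-GSTA4 replicate 2 was the highest. The part of lens RNA in the values of the 10 phagocytosis genes was not tested.

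Likeness among the 10 genes over the 7 libraries was measured as the root mean square difference of log2 CPM after centring each gene on its mean, over 45 gene pairs. Itgb5 and Ptk2 were closest at 0.15, both varying little. Pros1 and Cd36 came next at 0.31, then Mertk and Tyro3 at 0.38, and Axl with Itgb5 at 0.39 and Mertk with Itgav at 0.40 followed with no gap. Mertk and Gas6 were farthest apart at 1.41, so the ingestion receptor and its more abundant ligand had the least similar profiles. Among 11108 other genes, all at a mean log2 CPM of 2 or more, the 5 nearest to Mertk were Slc6a20a at 0.16, Dusp18 at 0.16, Slc2a12 at 0.18, Slc22a18 at 0.18 and Mfsd2a at 0.20. Slc2a12 is a glucose transporter and Mfsd2a a transporter of lysophospholipids that carry docosahexaenoic acid. Slc2a12 was at 33.2 to 79.4 CPM in AAV-GFP and 123 to 211 CPM in AAV-GSTA4, and Mfsd2a at 4.51 to 16.5 CPM and 24.7 to 41.9 CPM. The groups overlapped for Slc6a20a, at 272 to 841 CPM and 777 to 1727 CPM, and for Dusp18, at 6.04 to 24.3 CPM and 23.0 to 43.5 CPM. The 5 genes were selected for a profile like that of Mertk in these libraries, so their difference between the groups follows from the selection.

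The rest of the engulfment pathway was read from 3 further lists. Of 26 other receptors, ligands and adaptors 24 were tested (all but Timd4 and Havcr1), 12 above and 12 below 0 with a median log2 fold change of 0.01. None passed the adjusted threshold in edgeR. At an unadjusted p under 0.05 there were 2 higher and 3 lower, against 5.27% and 6.63% of all genes. Thbs1, a secreted protein that binds CD36 and integrins, was at 232, 337 and 227 CPM in AAV-GFP and at 604, 519, 848 and 582 CPM in AAV-GSTA4, without overlap. Its log2 fold change was 1.27 ± 0.28 (SE; adjusted p = 0.363, edgeR), and DESeq2 (adjusted p = 0.00516) and limma-voom (0.0456) called it. Lrp1, an engulfment and lipoprotein receptor, was at 201 to 215 CPM in AAV-GFP and 299 to 645 CPM in AAV-GSTA4, with a log2 fold change of 1.25 ± 0.29 (SE; adjusted p = 0.363, edgeR). It was also called by DESeq2 (adjusted p = 0.00656) and limma-voom (0.0449).

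Tulp1, which can act as a bridge to MERTK and is abundant in photoreceptors, was at 124, 244 and 574 CPM in AAV-GFP and at 79.0 to 185 CPM in AAV-GSTA4. Vtn, the integrin ligand vitronectin, was at 186, 312 and 629 CPM and at 145 to 204 CPM. Both were highest in AAV-GFP replicate 3, where the rod sum was also highest. Their log2 fold changes of -1.26 ± 0.48 and -1.05 ± 0.37 (SE) turned to 0.43 and 0.26 with the rod covariate in edgeR.

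Of 31 signalling and cytoskeletal genes, all tested, 22 were above and 9 below 0, with a median log2 fold change of 0.20. None passed after adjustment in edgeR. At an unadjusted p under 0.05, 3 were higher and 3 lower, against 5.27% and 6.63% of all genes. Myo7a, the myosin that carries phagosomes and melanosomes in the RPE, was at 49.5 to 62.3 CPM in AAV-GFP and 79.2 to 129 CPM in AAV-GSTA4, with a log2 fold change of 0.91 ± 0.23 (SE; adjusted p = 0.363 in edgeR, 0.0312 in DESeq2 and 0.0483 in limma-voom). Dock1, an exchange factor for Rac in engulfment, was at 15.6 to 41.4 CPM and 48.5 to 73.2 CPM, and Cttn, the actin regulator cortactin, at 93.3 to 128 CPM and 142 to 200 CPM. Crk, the adaptor upstream of Dock1, had the opposite sign, at 69.7 to 77.7 CPM and 38.0 to 49.5 CPM. These 4 genes were named for having the smallest p of the list, and none overlapped between the groups. Over the whole list 6 of 31 did not overlap, where 12% of all genes did not. The counts were 3 of 24 among the other receptors, ligands and adaptors and 5 of 23 among the genes of phagosome transport and maturation.

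Of 23 genes of phagosome transport and maturation, all tested, 13 were above and 10 below 0, with a median of 0.10. None passed after adjustment in edgeR. At an unadjusted p under 0.05, 2 were higher and 3 lower, against 5.27% and 6.63% of all genes. Mreg, which is needed for the degradation of phagosomes in the RPE, was at 8.92 to 12.8 CPM in AAV-GFP and 3.55 to 4.36 CPM in AAV-GSTA4, a log2 fold change of -1.39 ± 0.32 (SE; adjusted p = 0.363 in edgeR and 0.0456 in limma-voom, with none given by DESeq2). Rab5a, a GTPase of early phagosomes, was at 33.2 to 59.4 CPM and 15.9 to 28.4 CPM (log2 fold change -0.96 ± 0.29, SE; adjusted p = 0.363 in edgeR, 0.0952 in DESeq2 and 0.0456 in limma-voom). Uvrag was at 17.7 to 39.9 CPM and 7.28 to 22.2 CPM, and Becn1, its partner in a lipid kinase complex, at 50.1 to 68.4 CPM and 74.7 to 111 CPM, so members of that complex had fold changes of opposite sign.

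**Figure D5:**
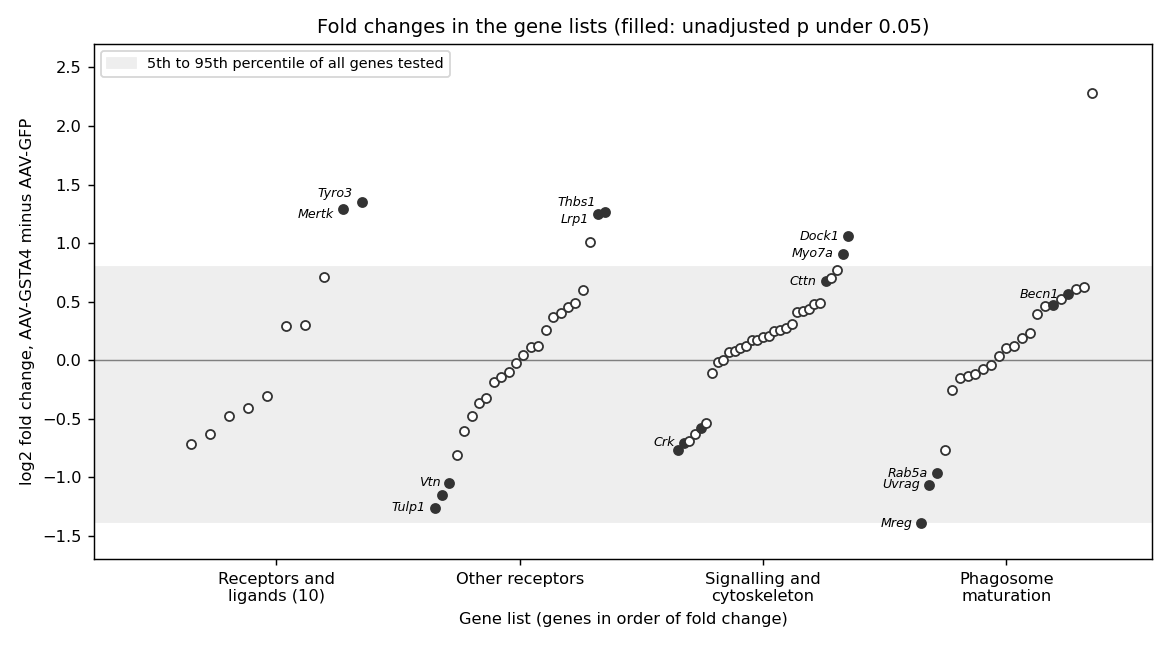
Log2 fold change (vertical axis) of the tested genes of the 4 lists in order within each list. Filled dots have an unadjusted p under 0.05 in edgeR, and those of genes named in the text are labelled. The band spans the 5th to 95th percentile of all genes tested. Of the labelled genes, Mertk, Tyro3, Thbs1, Lrp1, Dock1 and Myo7a lie above the band; the open dot at 2.28 is Cryba1, a crystallin gene at 27988 CPM in AAV-GSTA4 replicate 2 and 828 to 4833 CPM in the other 3 libraries of that group.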

How the data were processed

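RNA-seq counts of 7 RPE libraries (3 AAV-GFP, 4 AAV-GSTA4) were analysed. The authors deposited raw read counts in rows named by gene symbol, of which 26 were extra rows with a repeated symbol. The submitters' processing notes name STAR 2.7.1a, featureCounts 1.6.2 and the builds GRCm38 and GRCh38, without roles; the annotation, strand setting and treatment of multi-mapping reads are not given in the sources used here. Per the labels' protocols, cDNA was made with a low-input full-length kit and fragmented by transposase. Columns were matched by library name; replicates carry the numbers of the titles, and 0 columns were unmatched. The smallest chi-square per gene between libraries was 57.5, so none was a repeat.

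The main test was edgeR 4.0.16 (R 4.3.3): quasi-likelihood F-test, TMM scaling, default expression filter, robust dispersions, Benjamini-Hochberg over all genes. A prior count of 2 entered log2 CPM. A gene's SE is its fold change divided by the root of F. Alternatives included DESeq2 1.42.0 and limma 3.58.1 (voom with quality weights), and the test was tested on simulated data. Named genes were the 10 members, the 4 smallest p in each pathway list, the 5 nearest to Mertk and defining markers; Cryba1 was named after its values were seen. The members and lists were chosen with earlier results of these data known.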

Additional observations from a re-analysis of the deposited data

Results flagged for a closer look

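Rab5a in AAV-GSTA4 replicate 3 stood apart from its group, at 15.9 CPM against 27.7 to 28.4 CPM in the other 3 libraries, a gap that took 0.946 of the range of the group. It was the only 1 of 44 levels examined in the 4 AAV-GSTA4 libraries to do so, and chance flags about 1 in 20.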

How the results depend on the processing

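Mertk had an unadjusted p under 0.05 in 17 of 18 alternatives, the exception being the rod covariate, and Tyro3 in all 18; their log2 fold changes ranged from 0.82 to 1.62 and from 0.96 to 1.74. Of the 10 genes, 1 passed the adjusted threshold with DESeq2 (Tyro3) and 0 in every other alternative run. The only sign to turn among the 10 was that of Mfge8 with the rod covariate, at 0.037; Tulp1 and Vtn turned there too, to 0.43 and 0.26. Over all genes, 202 passed with DESeq2, 146 with limma-voom, 1 with the rod covariate, and from 0 to 1 when each library was left out. Of the pathway genes (24, 31 and 23 tested in edgeR in the 3 lists), 3 passed with DESeq2 and 5 with limma-voom. The shares over all genes were 2.14% of those that DESeq2 adjusted and 0.968% in limma-voom. The cause was not tested. With a replicate block by the titles' or the library names' numbers, 1 gene passed in each and 0 of the 10; the numbers are not known to pair animals, and the deviations of same-numbered libraries from their group means correlated at -0.089 to 0.009 (titles) and -0.13 to 0.015 (library names). With library totals the median of all genes moved to -0.37, and 6 of the 10 genes had an unadjusted p under 0.05 against 15.9% of all genes: Mertk, Tyro3, Cd36, Pros1, Mfge8 and Gas6. Relative to that median, Mertk was at 1.36 with TMM and 1.44 with totals, and Ptk2 at 0.36 and 0.37.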

Other observations

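The order of the AAV-GSTA4 libraries by Mertk, Tyro3 or Itgav differed from their order by the human GSTA4 transgene. Replicate 1, at 221 CPM of transgene, had the highest Tyro3 (46.1 CPM), with Mertk at 120 CPM. The library with the least transgene, replicate 3 at 2.64 CPM, had the highest Mertk (154 CPM) and Itgav (299 CPM) and the lowest Gas6 (52.5 CPM). The library with the most, replicate 2 at 251 CPM, had the lowest Mertk (68.4 CPM), Tyro3 (25.9 CPM) and Itgav (140 CPM) of the group and the highest Gas6 (158 CPM). Replicate 2 also had the highest sum over 10 lens fibre genes, at 106172 CPM against 4263 to 23496 CPM in the other 3 libraries. With 4 libraries no correlation was computed, and a relation of these genes to the transgene level was not tested.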
